A study of Mus musculus with 12 samples.

Results

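The immediate early genes Fos, Fosb, Jun, Junb, Egr1, Egr2, Egr3, Ier2, Atf3 and Dusp1 were followed through 12 RNA-seq libraries of mouse cochlear organoids. They were chosen by name. They are 10 of the 36047 genes in the tables, and all 10 passed the filter on low counts that left 18780 genes for testing. Immediate early genes are transcribed within minutes of a growth factor, stress or dissociation stimulus, without new protein synthesis, because the factors that switch them on (SRF with its TCF partners, CREB and pre-existing AP-1) are already present. Fos and Jun proteins pair to form AP-1, the Egr proteins are zinc finger transcription factors, and Dusp1 is a phosphatase that switches off the MAP kinases which induce these genes. In the cochlea several of them are known as early responders to noise and injury.

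The organoids had been grown for 7 days from cochlear epithelial cells of 5-day-old mice, in medium with EGF, FGF2, CHIR99021 and VPA and with doxycycline at 0.5 μg/mL. FST+LIN28B organoids carried the TRE-FST-288 and Col1a1-TRE-LIN28B transgenes, LIN28B organoids the second alone, FST organoids the first alone, and control organoids neither. All 4 conditions carried R26rtTA*M2, from which a doxycycline-dependent activator is made broadly, so the transgenes were not restricted to supporting cells. Each condition had 3 libraries, each from a different animal of either sex. LIN28B is an RNA binding protein that blocks maturation of the let-7 microRNAs, and FST is a secreted antagonist of Activins. The study asked what each adds to the reprogramming of supporting cells.

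Library totals ran from 42.7 to 65.3 M estimated counts. Lin28b was at 187 to 306 CPM in FST+LIN28B and 193 to 480 CPM in LIN28B, against 16.9 to 22.05 CPM in FST and 21.2 to 24.5 CPM in control (CPM are counts after each library is scaled to one common depth with TMM). Fst was at 334 to 817 CPM in FST+LIN28B and 116 to 445 CPM in FST, against 17.3 to 22.5 CPM in LIN28B and 7.72 to 13.1 CPM in control, so both genes went with the labels. The transgenes are human, and these values are for the mouse genes Lin28b and Fst. They serve as a check of the labels only, since the share of transgene reads counted in them is not known. Epithelial and supporting cell markers were present in every library, and their 15 genes summed to 3225 to 3315 CPM in FST+LIN28B and 2831 to 3297 CPM in LIN28B, against 4844 to 5395 CPM in FST and 4618 to 4860 CPM in control. Much of that difference lay in 1 gene, Tecta: the other 14 summed to 2917 to 2998 CPM in FST+LIN28B and 2604 to 2895 CPM in LIN28B, against 2990 to 3627 CPM in FST and 2913 to 3268 CPM in control. Immune markers summed to 3.65 to 7.30 CPM over 9 genes in all libraries. FST replicate 2 stood apart, with the lowest total (42.7 M) and 3.24% of its counts on ribosomal protein genes, against 3.99% to 4.62% in the other libraries.

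Over the 6 libraries with the LIN28B transgene, with or without FST, 3 of the 10 genes were higher than in the 6 without it: Jun 2.93-fold, Atf3 4.11-fold and Dusp1 1.80-fold. There 7.41% of all genes passed and 4.32% were higher. Between single conditions Jun alone passed the edgeR threshold of 0.01. Fos, Fosb, Junb, Egr1, Egr2, Egr3 and Ier2 passed the test in no comparison. No gene of the 10 passed it for FST alone, for FST added to LIN28B, or for the interaction of the transgenes. Over all genes 0.0213%, 0.506% and 0.00532% passed in these comparisons.

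**Figure D1:**
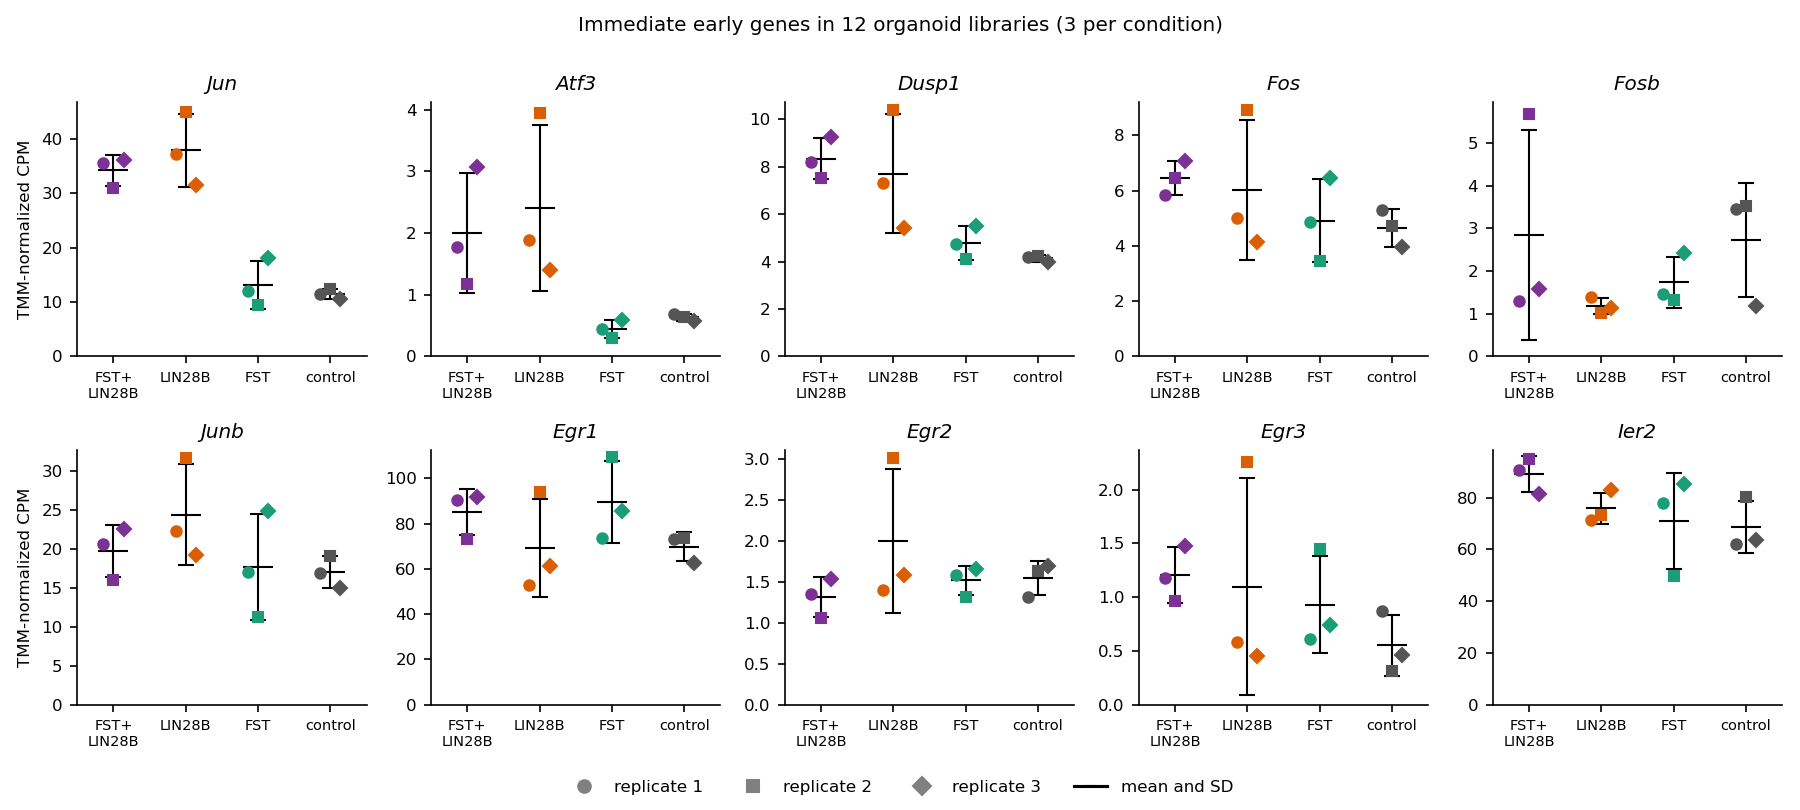
TMM-normalized CPM of the 10 genes (y axes, each from 0) in FST+LIN28B, LIN28B, FST and control organoids (x axes). Points are libraries, with the shape giving the replicate number, and bars are the mean and SD of 3. All 6 libraries with LIN28B lie above all 6 without it for Jun (30.9 CPM or more against 18.1 CPM or less) and Atf3 (1.17 CPM or more against 0.687 CPM or less).

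The promoters of the genes that rose, and that of Fos, which did not pass the test, were searched for elements known to bind the factors named above. RefSeq windows (GRCm38.p6, 250 bases before to 50 after a start site) were at hand for 7 of the 10: Fos, Fosb, Jun, Junb, Egr2, Atf3 and Dusp1. Capitals mark TGACNTCA (the 8-base AP-1 and CRE form), TGACG (the core of a CRE, the CREB and ATF element) and TATAAA, all on either strand. The Jun window is at chr4:95052173-95052472 (minus strand) and the Fos window at chr12:85473640-85473939 (plus strand), each at the outer start of its gene. Those of Atf3, at chr1:191183284-191183583 (minus strand), and Dusp1, at chr17:26508423-26508722 (minus strand), lie at starts inside the annotated gene.
Jun: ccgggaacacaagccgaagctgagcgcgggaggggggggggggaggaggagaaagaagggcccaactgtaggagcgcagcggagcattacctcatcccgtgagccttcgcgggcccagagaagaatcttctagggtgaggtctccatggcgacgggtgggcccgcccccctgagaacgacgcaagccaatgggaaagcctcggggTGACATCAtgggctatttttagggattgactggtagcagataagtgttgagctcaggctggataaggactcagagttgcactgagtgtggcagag
Atf3: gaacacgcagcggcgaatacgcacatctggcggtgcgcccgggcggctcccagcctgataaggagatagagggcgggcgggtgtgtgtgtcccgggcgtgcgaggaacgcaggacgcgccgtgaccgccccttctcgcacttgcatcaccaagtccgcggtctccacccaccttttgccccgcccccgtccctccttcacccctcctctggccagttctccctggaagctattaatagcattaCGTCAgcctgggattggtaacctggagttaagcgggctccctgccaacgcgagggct
Dusp1: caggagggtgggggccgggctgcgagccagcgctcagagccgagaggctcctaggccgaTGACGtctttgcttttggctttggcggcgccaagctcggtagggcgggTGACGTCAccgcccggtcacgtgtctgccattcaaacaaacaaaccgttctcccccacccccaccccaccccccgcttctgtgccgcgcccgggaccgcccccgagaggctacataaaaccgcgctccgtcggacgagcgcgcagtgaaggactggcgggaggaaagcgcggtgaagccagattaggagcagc
Fos: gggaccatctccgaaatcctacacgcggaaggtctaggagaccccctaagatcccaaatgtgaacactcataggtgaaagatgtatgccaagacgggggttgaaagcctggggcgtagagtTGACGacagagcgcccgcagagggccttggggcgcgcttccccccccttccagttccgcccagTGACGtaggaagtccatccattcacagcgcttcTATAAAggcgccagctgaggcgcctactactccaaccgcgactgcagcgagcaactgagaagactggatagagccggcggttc

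TGACNTCA was in the windows of Jun (45 bases before the start site) and Dusp1 (143 before), so in 2 of 7 genes, and in 10.02% of the 27025 genes with a window. This motif was searched after the windows had been seen, and where its N is G it also holds the shorter core. TGACG was in 6 of 7 (Atf3, Dusp1, Egr2, Fos, Fosb and Junb, but not Jun), against 23.0% of all genes. The CArG box, to which SRF binds, was in the Egr2 windows alone, against 1.81% of all genes. TGANTCA, the 7-base AP-1 site, was in none of the 7, against 8.97%. Sequence farther from the start site than these windows was not searched, and Egr1, Egr3 and Ier2 had no window. A motif missing here, such as the CArG box in Fos, may therefore lie elsewhere in the promoter. TATAAA was in Fos and Junb, against 15.7% of all genes. Of the 3 genes that rose, Atf3 and Dusp1 hold TGACG and Jun does not, and it is also in genes that did not pass the test. These letters are a description of the windows, not evidence of binding.

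Jun, which encodes the AP-1 subunit that can pair with itself, with Fos proteins or with ATF proteins, was at 35.6, 30.9 and 36.0 CPM in FST+LIN28B replicates 1, 2 and 3 and at 37.2, 44.9 and 31.5 CPM in LIN28B. It was at 12.01, 9.44 and 18.1 CPM in FST and at 11.4, 12.4 and 10.5 CPM in control. The lowest of the 6 libraries with LIN28B thus lay well above the highest of the 6 without it, and the counts behind them were 1637 to 2705 and 437 to 1073. FST+LIN28B against control gave a log2 fold change of 1.58 (SE 0.21, edgeR adjusted p = 0.00174). LIN28B against control gave 1.73 (SE 0.21, edgeR adjusted p = 0.000571). FST+LIN28B against FST gave 1.38 (SE 0.21, edgeR adjusted p = 0.00465). These comparisons share samples: the control libraries are in both comparisons with control, and the FST+LIN28B libraries in both of theirs. Of the 15 epithelial and supporting cell markers, 1 rose (Prox1) and 3 fell (Tecta, Otoa and S100a1) with LIN28B over all libraries, where 7.41% of all genes were called. Tecta was at 166 to 402 CPM in the 6 libraries with LIN28B, against 1316 to 2405 CPM in the 6 without, and Prox1 at 10.2 to 19.6 CPM, against 2.83 to 6.24 CPM. Their part in the result was not tested. In bulk libraries, more cells that express a gene and more RNA per cell cannot be told apart.

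The call in FST+LIN28B against control was narrow. It was lost without FST+LIN28B replicate 1 (adjusted p = 0.0104) or 3 (0.0102) and without control replicate 1 (0.0106), 2 (0.0116) or 3 (0.0152), in edgeR fits whose log2 fold changes stayed between 1.52 and 1.66. That in FST+LIN28B against FST was lost without FST+LIN28B replicate 1 (0.0260) or 3 (0.0239), FST replicate 1 (0.0255) or control replicate 2 (0.0102). It was also lost with only the conditions compared in the fit (0.0566) and with the replicate number as a block (0.0155). That in LIN28B against control passed in all 12 fits that leave out 1 library, with an adjusted p of at most 0.00608. Jun has a single annotated transcript, and 232 of its 3189 bases are shared with exons of the antisense gene Junos, whose reads cannot be told apart unless the counting used strand.

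Atf3, a stress-induced member of the ATF family that can pair with Jun, had the fewest counts of the 3. It was at 1.77, 1.17 and 3.07 CPM in FST+LIN28B and at 1.88, 3.94 and 1.40 CPM in LIN28B, against 0.447, 0.302 and 0.589 CPM in FST and 0.687, 0.631 and 0.580 CPM in control. The libraries with LIN28B did not overlap those without it but spread widely among themselves, with 62 to 237 counts against 14 to 41. The log2 fold change was 1.66 in FST+LIN28B (SE 0.45) and 1.92 in LIN28B (SE 0.45) against control, and edgeR gave adjusted p-values of 0.0651 and 0.0212, so neither passed the threshold of 0.01. DESeq2 gave 0.00785 and 0.000676. FST against control was -0.49 (SE 0.46, edgeR adjusted p = 1.00).

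Dusp1, the nuclear phosphatase that dephosphorylates ERK, JNK and p38, was at 8.19, 7.54 and 9.27 CPM in FST+LIN28B and at 7.31, 10.4 and 5.42 CPM in LIN28B. It was at 4.73, 4.10 and 5.50 CPM in FST and at 4.17, 4.25 and 3.98 CPM in control. LIN28B replicate 3, the lowest of its condition, lay just under FST replicate 3, and all other libraries with LIN28B were above all without it. FST+LIN28B was above control by 1.01 on the log2 scale (SE 0.22, edgeR adjusted p = 0.0242), and for LIN28B the value was 0.90 (SE 0.22, edgeR adjusted p = 0.0246). DESeq2 gave adjusted p-values of 0.000297 and 0.00117.

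Over all 6 libraries with LIN28B against all 6 without it, the 3 genes passed the edgeR test together. Jun was higher by 1.55 on the log2 scale (SE 0.15, adjusted p = 5.35e-05), Atf3 by 2.04 (SE 0.32, adjusted p = 0.00137) and Dusp1 by 0.85 (SE 0.15, adjusted p = 0.00309). Dusp1 lost its call without control replicate 3 (adjusted p = 0.0115), and Jun and Atf3 kept theirs whichever library was left out. The libraries did not overlap for 2 of the 10 (Jun and Atf3, both higher), against 4.58% of all genes.

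Counts of calls are read against the whole transcriptome. With LIN28B over all libraries 3 of the 10 passed, all higher, while 7.41% of all genes passed and 4.32% were higher. In FST+LIN28B against control 1 of the 10 passed (Jun), against 1.26% of all genes. In LIN28B against control 1 of the 10 passed (Jun), against 3.43%, and in FST+LIN28B against FST 1 of the 10 (Jun), against 0.953%. A test for any difference among the 4 conditions called 2 of the 10, Jun (edgeR adjusted p = 0.000300) and Atf3 (edgeR adjusted p = 0.00817), against 5.03% of all genes. Atf3 lost that call in 10 of the 12 fits that leave out 1 library, all but those without FST+LIN28B replicate 2 or LIN28B replicate 3. At an adjusted p under 0.05, 2 of the 10 passed in FST+LIN28B against control (3.89% of all genes), 3 in LIN28B against control (8.41%) and 2 in FST+LIN28B against FST (3.29%), and 3 differed among the 4 conditions (10.2%).

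**Figure D2:**
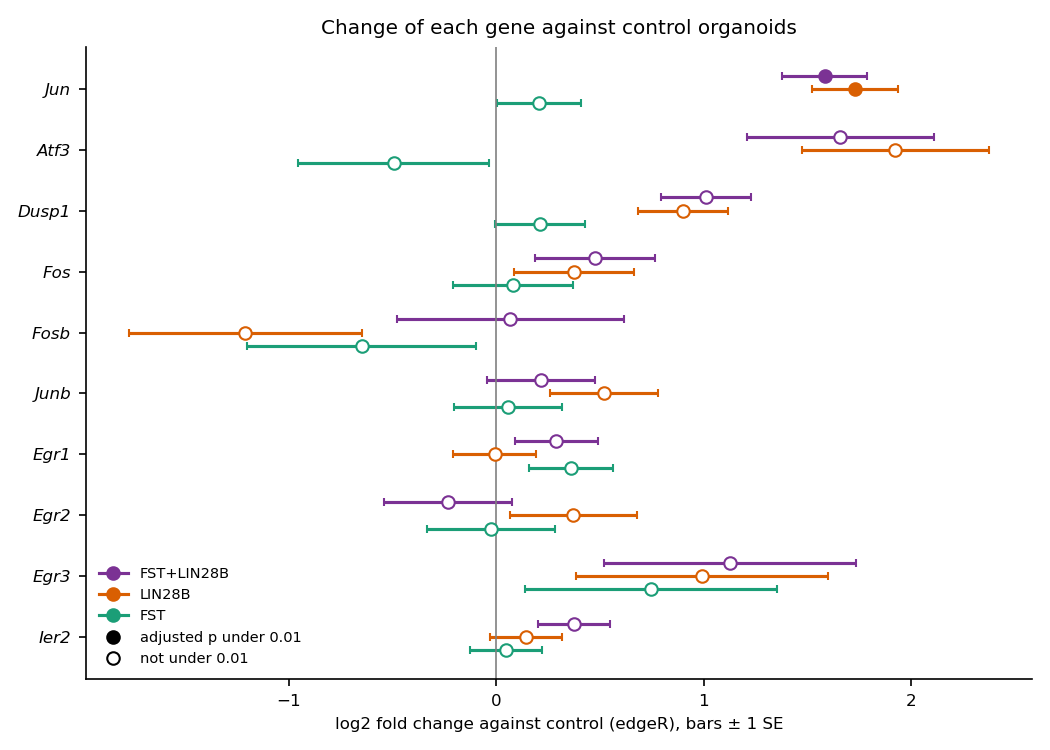
Log2 fold change against control (x axis, edgeR, bars ± 1 SE) of the 10 genes (y axis) in FST+LIN28B, LIN28B and FST organoids, all set against the same 3 control libraries. Filled points passed an adjusted p of 0.01. Jun alone is filled, at 1.58 in FST+LIN28B and 1.73 in LIN28B, and Atf3 and Dusp1 lie to the right in both, while the FST points of Jun (0.21) and Dusp1 (0.21) lie near 0.

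Fos, the usual partner of Jun in AP-1, passed the test in no comparison. It was at 5.84, 6.46 and 7.07 CPM in FST+LIN28B and at 4.99, 8.92 and 4.15 CPM in LIN28B, against 4.85, 3.43 and 6.44 CPM in FST and 5.28, 4.71 and 3.94 CPM in control. FST+LIN28B lay just above control without overlap, and the LIN28B libraries overlapped control, with replicate 2 above all other libraries. Against control the log2 fold change was 0.48 for FST+LIN28B (SE 0.29, edgeR adjusted p = 0.502), and LIN28B gave 0.37 (SE 0.29, edgeR adjusted p = 0.542).

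The balance of the AP-1 genes was read within each library. Jun over Fos, as a ratio of TPM (a level scaled by transcript length), was 2.15 to 3.01 in FST+LIN28B and 2.59 to 3.47 in LIN28B, against 1.14 to 1.26 in FST and 0.898 to 1.17 in control. Jun over Junb was 0.835 to 0.962 in FST+LIN28B and 0.765 to 0.878 in LIN28B, against 0.359 to 0.441 in FST and 0.333 to 0.373 in control. Atf3 over Fos was 0.135 to 0.345 in FST+LIN28B and 0.246 to 0.376 in LIN28B, against 0.0612 to 0.0705 in FST and 0.0934 to 0.107 in control. In all 3 ratios the libraries with LIN28B lay above those without it. Such a ratio shows unequal change and does not show which of its genes stayed the same.

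Junb, a Jun relative often found to restrain Jun activity, was at 20.6, 16.1 and 22.6 CPM in FST+LIN28B and at 22.4, 31.7 and 19.2 CPM in LIN28B, against 17.1, 11.3 and 24.9 CPM in FST and 17.0, 19.2 and 15.04 CPM in control. The LIN28B libraries lay just above control, by 0.52 on the log2 scale (SE 0.26, edgeR adjusted p = 0.290). Fosb, whose product pairs with Jun proteins as Fos does, had its highest level in FST+LIN28B replicate 2. It was at 1.30, 5.69 and 1.57 CPM in FST+LIN28B and at 1.38, 1.01 and 1.13 CPM in LIN28B, against 1.45, 1.32 and 2.42 CPM in FST and 3.45, 3.53 and 1.18 CPM in control. FST+LIN28B replicate 2 and control replicates 1 and 2 were above all other libraries, and no comparison passed. LIN28B against control was -1.21 (SE 0.56, edgeR adjusted p = 0.242), and FST+LIN28B against LIN28B, at 1.28 (SE 0.56, adjusted p = 0.451), became 0.28 without FST+LIN28B replicate 2.

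Egr1, a zinc finger factor widely used as a mark of recent stimulation, did not separate the conditions. It was at 90.2, 73.4 and 91.9 CPM in FST+LIN28B and at 52.7, 93.9 and 61.4 CPM in LIN28B, against 73.6, 109 and 85.5 CPM in FST and 73.1, 73.7 and 62.4 CPM in control. The conditions overlapped, and LIN28B against control was -0.01 (SE 0.20, edgeR adjusted p = 0.990). Egr2, known for its role in Schwann cell myelination, was at 1.06 to 1.53 CPM in FST+LIN28B and 1.40 to 3.01 CPM in LIN28B, against 1.32 to 1.65 CPM in FST and 1.31 to 1.69 CPM in control. LIN28B replicate 2 alone (3.01 CPM) was above the range of the other libraries.

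Egr3, a target of the same signals, had few counts, with 17 to 136 counts a library. It was at 1.17, 0.964 and 1.48 CPM in FST+LIN28B and at 0.581, 2.26 and 0.450 CPM in LIN28B, against 0.607, 1.45 and 0.740 CPM in FST and 0.872, 0.315 and 0.464 CPM in control. FST+LIN28B did not overlap control, yet its log2 fold change of 1.13 had an SE of 0.61 (edgeR adjusted p = 0.422). Ier2, a short nuclear regulator, was at 90.5, 95.1 and 81.4 CPM in FST+LIN28B and at 71.4, 73.2 and 82.8 CPM in LIN28B, against 77.7, 49.7 and 85.1 CPM in FST and 61.9, 80.2 and 63.7 CPM in control. FST+LIN28B was just above control, by 0.37 on the log2 scale (SE 0.17, edgeR adjusted p = 0.322).

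Libraries that do not overlap were counted in the same way. In FST+LIN28B all 3 libraries were above all 3 control libraries for 6 of the 10 (Jun, Atf3, Dusp1, Fos, Egr3 and Ier2), against 15.2% of all genes. In LIN28B this held for 4 of the 10 (Jun, Atf3, Dusp1 and Junb), against 18.7% of all genes. None of the 10 lay wholly below control in either, against 15.1% and 17.9% of all genes. Over the 10, the middle log2 fold change against control was 0.43 with both transgenes and 0.45 with LIN28B alone, beside -0.01 and -0.03 over all genes.

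FST alone separated none of the 10 genes from control. All 10 overlapped control (4.73% of all genes lay wholly above it and 2.91% wholly below), their median log2 fold change was 0.07 (0.04 over all genes), and the range was -0.65 for Fosb to 0.75 for Egr3. EdgeR called 0 of 10 (0.0213% of all genes passed), 0 had an unadjusted p under 0.05 (3.74% of all genes), and DESeq2 called 0 (68 of 18780 genes passed). Adding FST to LIN28B gave a median of 0.11, with 0 of 10 called by edgeR (0.506% of all genes passed) or DESeq2 (454 genes passed). Fosb alone had an unadjusted p under 0.05 there, against 10.2% of all genes. The 6 libraries with FST against the 6 without gave 0 of 10 with either tool (0.724% of all genes passed with edgeR, and 478 genes with DESeq2). Egr1 alone, at 0.33, had an unadjusted p under 0.05, against 9.70% of all genes. The interaction of FST and LIN28B gave 0 of 10 with either tool (0.00532% of all genes passed with edgeR, and 33 genes with DESeq2). Fosb was again the 1 gene at an unadjusted p under 0.05, against 3.58% of all genes. With shares this low, counts of 0 among 10 genes do not set them apart from all genes. For Jun the interaction was -0.35 (SE 0.29, edgeR adjusted p = 1.00), so its rise with LIN28B was not shown to differ with FST.

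Length-scaled levels of the 10 genes spanned a wide range. In control organoids Ier2 led with 70.5 to 87.6 TPM, followed by Egr1 (31.2 to 36.3 TPM) and Junb (14.4 to 18.2 TPM), whose ranges were separate. Jun (5.37 to 6.08 TPM) and Fos (4.59 to 6.53 TPM) came next and did not differ beyond their spread, and Dusp1 was at 4.09 to 4.48 TPM. Fosb (0.531 to 1.55 TPM), Egr2 (0.939 to 1.19 TPM), Atf3 (0.493 to 0.642 TPM) and Egr3 (0.281 to 0.711 TPM) were lower, and the ranges of Egr2 and Atf3 were separate while Fosb overlapped Egr2 and Atf3 overlapped Egr3. In LIN28B organoids Jun, at 15.3 to 23.8 TPM, overlapped Junb (17.4 to 31.1 TPM) and was above Fos (4.58 to 9.18 TPM). In FST+LIN28B it was at 15.1 to 18.01 TPM, beside Junb at 15.7 to 21.6 TPM.

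**Figure D3:**
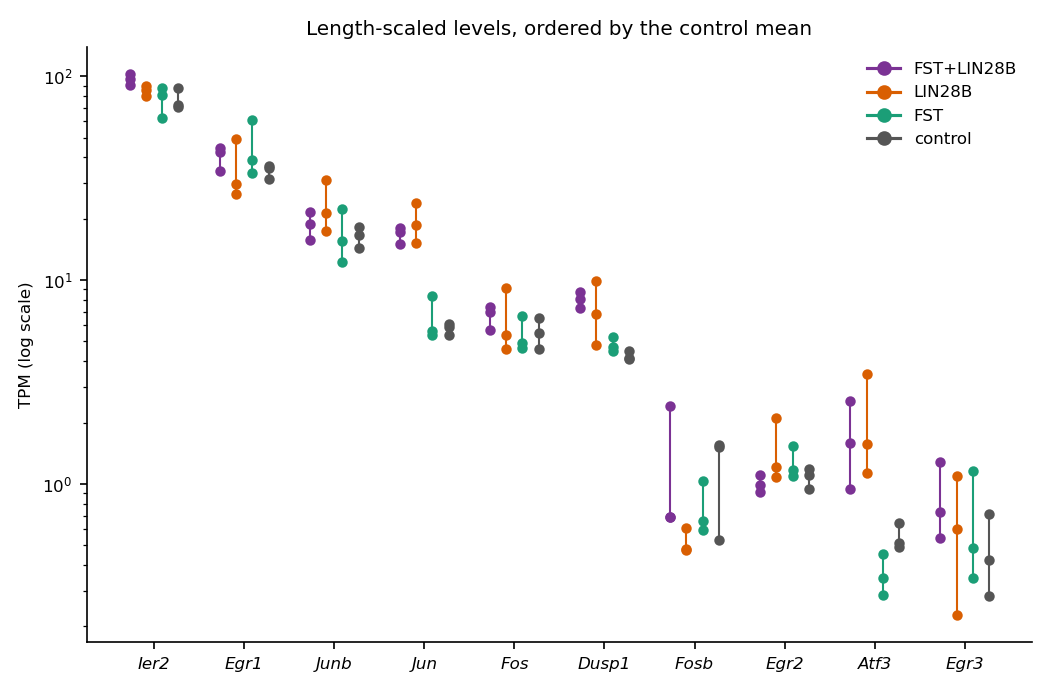
TPM (y axis, log scale) of the 10 genes (x axis, ordered by the control mean) in the 3 libraries of each condition, joined by a line over their range. Jun lies with Fos in FST and control organoids, and with Junb in FST+LIN28B (15.1 to 18.01 TPM) and LIN28B (15.3 to 23.8 TPM).

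Within a condition the same library was often highest for several of the genes. Replicate 3 of FST+LIN28B was the highest of its condition for 8 of the 10, as were LIN28B replicate 2 and FST replicate 3, and control replicate 2 for 6. At the other end, FST replicate 2 was the lowest of its condition for 8 of the 10, FST+LIN28B replicate 2 and control replicate 3 for 7 each, and LIN28B replicate 3 for 6. FST replicate 2 is the library with the lowest total, and LIN28B replicate 3 had less Lin28b (193 CPM) than LIN28B replicates 1 (480 CPM) and 2 (473 CPM). The part of these features in the shared highs and lows was not tested. How often each library was highest or lowest over all genes is not given here. These counts are therefore not shown to be particular to the 10 genes. The biological coefficient of variation of the 10 had a median of 0.259, against 0.186 over all genes, and was largest for Egr3 (0.507) and Fosb (0.478) and smallest for Ier2 (0.167).

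Transcript estimates separated spliced coding RNA from annotated retained-intron and processed forms, although short read estimates between overlapping transcripts are imprecise. For Dusp1 the coding transcripts were at 4.32, 3.31 and 5.33 CPM in FST+LIN28B and at 4.11, 7.46 and 2.71 CPM in LIN28B, against 2.53, 1.17 and 3.26 CPM in FST and 1.37, 1.77 and 2.10 CPM in control. Its other transcripts were at 3.87 to 4.23 CPM in FST+LIN28B and 2.71 to 3.20 CPM in LIN28B, against 2.20 to 2.93 CPM in FST and 1.88 to 2.802 CPM in control. Coding Dusp1 was above every control library in every library with LIN28B, and also in FST replicates 1 and 3. In FST replicate 3 it was above LIN28B replicate 3. The other transcripts were likewise above every control library in all FST+LIN28B libraries.

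The coding transcript of Fos was at 4.98 to 5.90 CPM in FST+LIN28B and 3.15 to 7.80 CPM in LIN28B, against 2.58 to 5.07 CPM in FST and 3.05 to 3.86 CPM in control, and its processed transcripts were at 0.757 to 1.43 CPM throughout. The non-coding share of Fos averaged 17.4% ± 4.34 in libraries with LIN28B and 23.3% ± 3.31 in those without (SD, n = 6 each; exact permutation test, two-sided, p = 0.0281). That of Dusp1 averaged 44.6% ± 9.39 in libraries with LIN28B and 55.3% ± 12.3 in those without (SD, n = 6 each; exact permutation p = 0.132). Shares were compared for 4 genes after they had been seen, and none passed after adjustment (exact permutation, adjusted p = 0.113 for Fos and 0.264 for Dusp1).

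Fosb counts lay mostly on a retained-intron transcript, at 63.6% to 84.2% of the gene, and those of Egr3 were split at 19.6% to 84.4% on non-coding forms. The exact permutation p was 0.861 for Fosb and 0.916 for Egr3. Atf3 was on 1 coding transcript, which took 97.1% or more of the gene in every library, and Junb on another, with 97.6% or more.

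**Figure D4:**
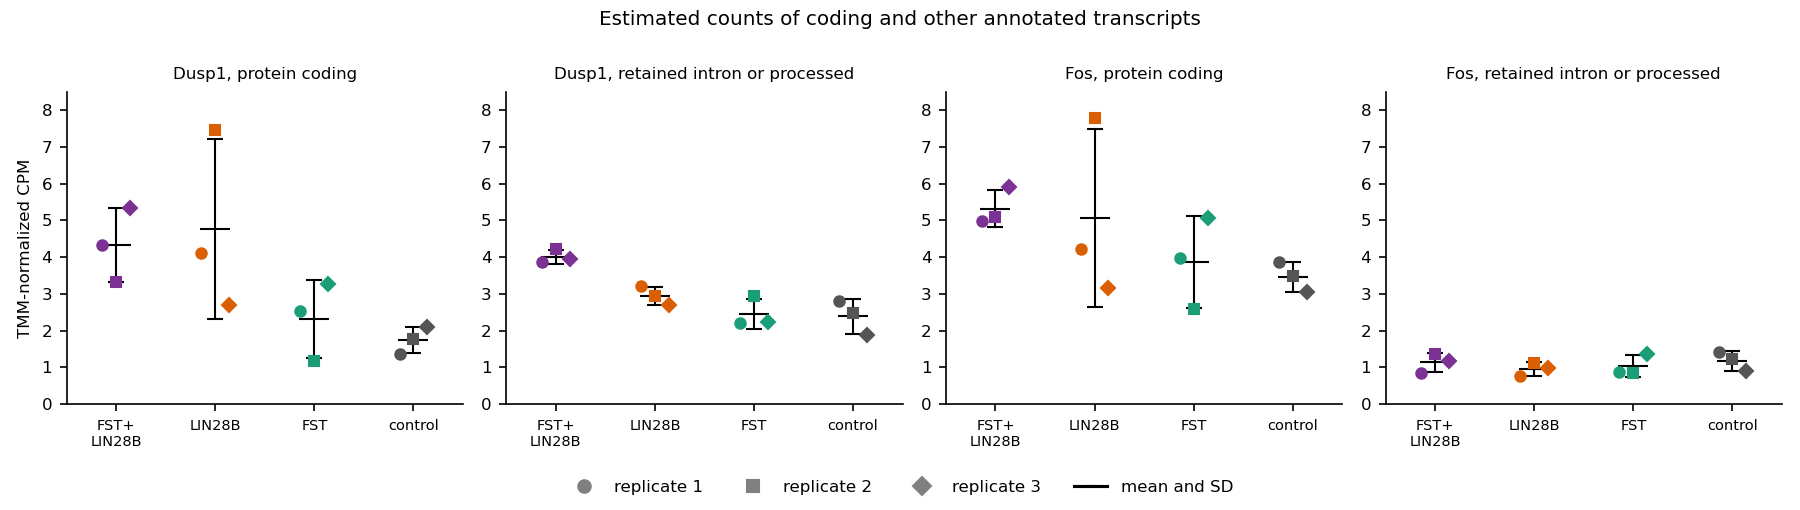
TMM-normalized CPM (y axes, 0 to 8.5) assigned to coding and to retained-intron or processed transcripts of Dusp1 and Fos in FST+LIN28B, LIN28B, FST and control organoids (x axes). Points are libraries and bars the mean and SD of 3. Coding Dusp1 averages 4.32 and 4.76 CPM in FST+LIN28B and LIN28B and 2.32 and 1.75 CPM in FST and control, while the non-coding forms of Fos stay between 0.757 and 1.43 CPM.

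LIN28B acts on let-7, whose seed (bases 2 to 8, capitals) all 9 family members found in the RefSeq table share. It is shown for mmu-let-7a-5p, at chromosome 13, 48538239 to 48538260 (GRCm38.p6, minus strand).
mmu-let-7a-5p: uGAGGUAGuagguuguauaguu
The 7-base match to this seed was in the 3′ untranslated region of 1 of the 10 genes, Egr3, which holds 1 match in 2645 bases. Jun (1233 bases), Atf3 (1186 bases) and Dusp1 (690 bases) held none. Of the 16393 tested genes with an annotated 3′ untranslated region, 11.9% held a match. MicroRNAs were not measured here, and a match of letters is not evidence of targeting.

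The rest of the early response was read from lists of related genes. Of 36 tested other early response genes, 3 rose and none fell in FST+LIN28B against control, 8 rose and none fell in LIN28B against control, and 10 rose and 1 fell with LIN28B over all libraries. Over all genes edgeR called 1.26%, 3.43% and 7.41% in these comparisons, in either direction. The middle log2 fold change of the list against control was 0.28 with both transgenes and 0.36 with LIN28B alone, beside -0.01 and -0.03 over all genes. Sik1, a CREB-induced kinase, rose by 2.12 in FST+LIN28B (SE 0.18, edgeR adjusted p = 0.000178). For LIN28B the rise was 2.04 (SE 0.18, edgeR adjusted p = 0.000106), and Sik1 was at 30.8 to 49.6 CPM in the 6 libraries with LIN28B, against 9.04 to 14.3 CPM in the others. Gadd45g, a stress-induced growth arrest gene, rose by 1.78 in FST+LIN28B and 2.26 in LIN28B, and Plk2, a polo-like kinase induced by serum, by 0.99 in FST+LIN28B.

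Myc and Ccn2 were called lower in FST+LIN28B than in LIN28B. Myc, the growth-promoting factor, was at 7.16, 4.91 and 7.00 CPM in FST+LIN28B and at 12.9, 18.6 and 16.6 CPM in LIN28B, against 4.59 to 5.28 CPM in control. FST+LIN28B was below LIN28B by a log2 fold change of -1.33 (SE 0.19, edgeR adjusted p = 0.00351). Ccn2, a matricellular gene that TGF-β and YAP induce, was at 66.0 to 79.0 CPM in FST+LIN28B and at 172 to 194 CPM in LIN28B, against 88.8 to 102 CPM in control, and FST+LIN28B was below LIN28B by -1.30 (SE 0.14, edgeR adjusted p = 0.00103). For Jun the FST+LIN28B and LIN28B libraries overlapped (log2 fold change -0.15, SE 0.20, edgeR adjusted p = 1.00).

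**Figure D5:**
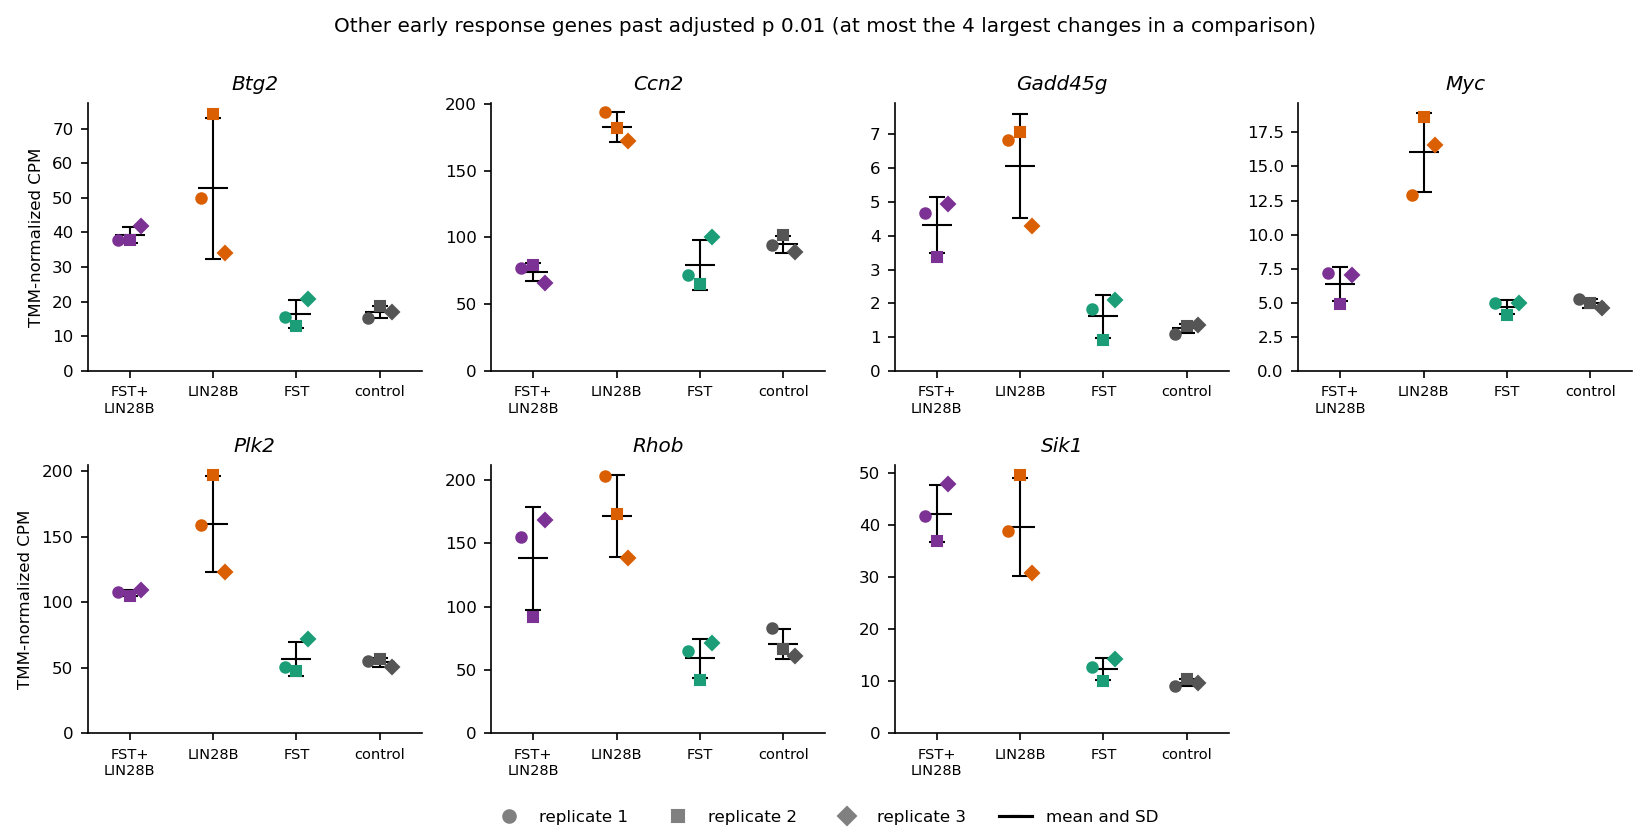
TMM-normalized CPM (y axes, each from 0) of the early response genes outside the 10 that passed an adjusted p of 0.01, at most the 4 of largest change in a comparison, in FST+LIN28B, LIN28B, FST and control organoids (x axes). Points are libraries and bars the mean and SD of 3. Sik1 is at 30.8 CPM or more in every library with LIN28B, and Myc and Ccn2 stand high in LIN28B alone.

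Of 16 other AP-1 and ATF family genes tested, none was called by edgeR in FST+LIN28B against control (4 had an unadjusted p under 0.05 and DESeq2 called 2), 1 rose in LIN28B against control, and 3 rose and 2 fell with LIN28B over all libraries. EdgeR called 1.26%, 3.43% and 7.41% of all genes there. In FST+LIN28B against control 15.8% of all genes had an unadjusted p under 0.05 and DESeq2 called 919 of 18780. Maff, a small Maf protein that lacks an activation domain, rose by 1.47 in LIN28B (SE 0.22, edgeR adjusted p = 0.00214). Jund, the most constitutively expressed Jun gene, was at 44.2 to 58.6 CPM in FST+LIN28B and 47.3 to 68.5 CPM in LIN28B, against 20.9 to 34.8 CPM in FST and 27.2 to 36.2 CPM in control, a rise of 0.86 with LIN28B (SE 0.14, edgeR adjusted p = 0.00165). Jdp2, which encodes a repressor of AP-1, was lower by -0.81 (SE 0.16, edgeR adjusted p = 0.00524). Atf1 was the other gene that fell and Mafk the third that rose.

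Among 17 MAP kinase phosphatases and ERK feedback genes, 2 rose in FST+LIN28B against control, 1 in LIN28B against control and 3 with LIN28B over all libraries, and none fell. The shares of all genes called were 1.26%, 3.43% and 7.41%. Dusp9, a cytoplasmic ERK phosphatase, rose by 1.79 in FST+LIN28B (SE 0.17, edgeR adjusted p = 0.000300). For LIN28B the rise was 1.85 (SE 0.17, edgeR adjusted p = 0.000106). Dusp5, a nuclear ERK phosphatase, rose by 1.12 in FST+LIN28B. Dusp8, which acts on JNK and p38, was at 1.64 to 2.804 CPM in FST+LIN28B and 2.48 to 7.61 CPM in LIN28B, against 0.718 to 1.64 CPM in FST and 0.742 to 1.32 CPM in control.

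Upstream, 1 of 20 MAP kinases and receptors rose in FST+LIN28B against control (1.26% of all genes were called), and in LIN28B 2 rose and 1 fell (3.43%). Fgfr2, a receptor for FGF ligands, rose by 3.64 in FST+LIN28B (SE 0.50, edgeR adjusted p = 0.00218). For LIN28B the rise was 3.15 (SE 0.49, edgeR adjusted p = 0.00243), and Fgfr2 was at 2.65 to 7.64 CPM with LIN28B, against 0.282 to 2.07 CPM without. Mapk14, which encodes p38α, rose by 0.43 and Mapk12, which encodes p38γ, fell by 0.83 in LIN28B. None of 11 SRF, TCF and CREB factors was called by edgeR in any comparison, where at most 7.41% of all genes were. With LIN28B over all libraries 7 of them had an unadjusted p under 0.05, against 27.9% of all genes. DESeq2 called 2 of them, against 2494 of 18780 genes.

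Downstream, 3 of 13 tested AP-1 target genes rose in LIN28B against control (3.43% of all genes were called). In FST+LIN28B against control edgeR called none (1.26% of all genes). There 5 had an unadjusted p under 0.05 (15.8% of all genes) and DESeq2 called 1 (919 of 18780 genes). Timp1, a metalloproteinase inhibitor, was at 4.15, 2.78 and 4.83 CPM in FST+LIN28B and at 7.37, 23.5 and 9.66 CPM in LIN28B, against 2.53, 2.12 and 2.04 CPM in control. Plaur, the urokinase receptor, rose by 2.25 and Lif, a cytokine, by 1.75 in LIN28B. Over the list the middle log2 fold change against control was 0.39 with both transgenes and 0.60 with LIN28B alone, beside -0.01 and -0.03 over all genes.

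Stress programmes that often accompany these genes were read beside the shares over all genes. Of 10 integrated stress response genes, edgeR called none in FST+LIN28B or in LIN28B against control, against 1.26% and 3.43% of all genes. Of the 10, 4 and 8 had an unadjusted p under 0.05 there, against 15.8% and 21.2% of all genes. DESeq2 called 1 and 2 of the 10, against 919 and 1585 of 18780 genes. With LIN28B over all libraries 1 (Sesn2, by 0.62) rose, while 4.32% of all genes were called higher. None of 11 heat shock genes was called by either tool in FST+LIN28B or LIN28B against control. In each, 1 had an unadjusted p under 0.05, against 15.8% and 21.2% of all genes. Their middle log2 fold change there was 0.08 and 0.29, beside -0.01 and -0.03 over all genes. Markers of other cells that could carry early gene RNA were also read. Mesenchymal markers (11 genes) summed to 1109 to 1620 CPM in FST+LIN28B and 1540 to 2054 CPM in LIN28B, against 1130 to 2065 CPM in FST and 1645 to 1785 CPM in control, and Schwann cell markers (9 genes) to 223 to 256 CPM in all libraries. Endothelial markers (7 genes) summed to 92.8 to 128 CPM in FST+LIN28B and 34.9 to 57.8 CPM in LIN28B, against 59.1 to 70.5 CPM in FST and 38.0 to 54.2 CPM in control, with Tek at 70.4 to 95.6 CPM in FST+LIN28B and 9.78 to 31.7 CPM in LIN28B, against 25.9 to 44.4 CPM in FST and 15.3 to 31.8 CPM in control, and Cdh5, a defining marker, at 0 to 0.0216 CPM in all libraries. Neuron markers (9 genes) summed to 143 to 180 CPM in FST+LIN28B and 143 to 177 CPM in LIN28B, against 124 to 152 CPM in FST and 136 to 156 CPM in control. Of 8 tested neuron markers 2 rose with LIN28B over all libraries, where 4.32% of all genes were called higher. Nefm was at 8.56 to 16.0 CPM in FST+LIN28B and 10.1 to 12.5 CPM in LIN28B, against 3.29 to 4.19 CPM in FST and 3.48 to 5.399 CPM in control. Nefl was at 1.72 to 5.09 CPM with LIN28B, against 0.151 to 0.671 CPM without. Hair cell markers (8 genes) summed to 102 to 123 CPM in FST+LIN28B and 92.8 to 98.4 CPM in LIN28B, against 85.8 to 107 CPM in FST and 88.6 to 97.2 CPM in control. Of 7 tested hair cell markers 4 rose with LIN28B over all libraries (Pou4f3, Gfi1, Myo7a and Atoh1), where 4.32% of all genes were called higher. Gfi1 was low throughout, at 0.718 CPM or less in every library. Pou4f3 was at 3.45 to 6.27 CPM in FST+LIN28B and 0.772 to 3.05 CPM in LIN28B, against 0.0216 to 0.236 CPM in FST and 0.0166 to 0.134 CPM in control. The part of these cells in the levels of the 10 genes was not tested.

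The genes whose levels over the 12 libraries were most like the mean standardized level of the 10 were Tmem158 (Pearson r = 0.93), F2rl1 (0.92), Ncam1 (0.92), Pla2g6 (0.91) and Cdcp1 (0.91), and the least like were Fam149b (-0.92), Sox10 (-0.91) and Dscc1 (-0.89). Within the 10 this correlation was highest for Fos (0.95) and Dusp1 (0.92) and lowest for Egr1 (0.35) and Fosb (-0.02), each gene being part of the mean. Among the genes most like Jun were Iffo2 (0.99), Imp4 (0.99), Sik1 (0.98) and Pik3r4 (0.98). These are descriptions over 12 libraries in 4 conditions, which share whatever separates the conditions.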

How the data were processed

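Each library was total RNA of organoids, sequenced stranded and paired by the authors, who made the deposited estimated counts and effective lengths per transcript with kallisto 0.46.1 (Ensembl on GRCm38). Whether kallisto used strand is not given in the sources used here. Of 118489 transcripts 116816 matched an annotation and were summed to 36047 genes. The rest held 0.543% to 0.598% of counts. Estimated counts were rounded, and TPM were computed from counts and effective lengths.

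Low genes were removed with filterByExpr by condition. A gene was kept with about 10 counts, scaled for depth, in at least 3 libraries and 15 counts in all. The others were fitted in 1 edgeR 4.0.16 quasi-likelihood model of 12 libraries with TMM, in R 4.3.3. Benjamini-Hochberg adjustment was over 18780 genes, with a threshold of 0.01. The 9 comparisons were refitted under 22 alternatives, among them DESeq2 1.42.0, limma 3.58.1 on log2(TPM + 1) and log2(TPM + 0.1), and leaving out each library. The fit was tested on simulated data. Libraries of a condition came from different animals. Counts cover reads without molecular identifiers. The genes and lists were chosen with earlier results of these data known. Outside the 10 genes, at most the 4 called genes of largest change per list and comparison were described with values, and markers, Atf1 and lists' other called genes were named after their values were seen. One gene among those most like Jun is not reported here.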

Additional observations from a re-analysis of the deposited data

How the results depend on the processing

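Over single genes and comparisons, 1704 alternative values kept their side of the threshold, 12 passed only under the alternative and 14 passed only in the main setting. Of the 1704, 1619 kept their direction and 85, over 28 genes and comparisons, changed sign, none of them called in either setting (lowest adjusted p = 0.377). Without FST+LIN28B replicate 2, Fosb in FST+LIN28B against control was -0.91 (0.07 in the main setting), and without LIN28B replicate 2, Egr3 in LIN28B against control was -0.09 (0.99 in the main setting). The number of the 10 genes called in FST+LIN28B against control was 1 in the main setting, 3 with DESeq2, 2 with only the conditions compared, 2 at an adjusted p under 0.05 and 0 to 1 when a library was left out. In LIN28B against control it was 1, with 3 by DESeq2, 3 at an adjusted p under 0.05 and 1 to 2 when a library was left out. In FST+LIN28B against FST it was 1, with 3 by DESeq2, 0 with only the conditions compared, 0 with the replicate block, 2 at an adjusted p under 0.05 and 0 to 1 when a library was left out. For any difference among the 4 conditions it was 2, with 3 by DESeq2, 3 at an adjusted p under 0.05, 1 under the replicate block, 1 with limma on log2(TPM + 1), 1 on log2(TPM + 0.1) and 1 to 3 when a library was left out. With LIN28B over all libraries it was 3, and 2 to 3 when a library was left out. The causes were not tested. Dusp1 with LIN28B over all libraries fell short with limma, at an adjusted p of 0.0138 on log2(TPM + 1) and 0.0125 on log2(TPM + 0.1). Over all genes DESeq2 called 919 against 236 in FST+LIN28B against control, 1585 against 644 in LIN28B against control and 2494 against 1392 with LIN28B over all libraries, and without FST replicate 2 edgeR called 582, 1362 and 1944. Replicate numbers showed no clear pairing of the samples: 18 same-number pairs correlated between -0.40 and 0.25 (median 0.03), with 4 over 0.1. The 36 pairs of different number correlated between -0.32 and 0.34 (median 0.01), with 12 over 0.1. Litters are not given in the labels, so this check cannot exclude shared litters or batches. With the replicate block Jun lost its call in FST+LIN28B against FST (edgeR adjusted p = 0.0155), and Atf3 lost its call for any difference among the 4 conditions. The block changed no other call of the 10 genes. Counts of 14 to 41 for Atf3 without LIN28B limit its precision.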
